A study of Mus musculus with 69 samples.

Results

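The 10 genes described here control the G1 phase of the cell cycle, and they were taken by symbol from the 56783 genes listed in 4 tables of kidney tubule RNA-seq. They are the CDK inhibitors Cdkn1a, Cdkn1b and Cdkn1c of the Cip/Kip family, the inhibitors Cdkn2c and Cdkn2d of the INK4 family, the D-type cyclins Ccnd1, Ccnd2 and Ccnd3, and the kinases Cdk4 and Cdk6. Each symbol matched 1 Ensembl gene in every table, and all 10 had a mean of at least 1 TPM (a length-scaled transcript abundance with a fixed total per library) in all 4 tables. The set was put together with the low Cdkn1b of nephrectomised collecting duct already known. Differences between operations in collecting duct are therefore given for these genes as a description, with no test.

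The tubules were dissected from kidneys of male wild-type C57BL/6 mice that were 7 weeks old at the operation. The mice had been sham operated or had lost a kidney by surgical excision (unilateral nephrectomy, UNx), and tubules were taken 24 h or 72 h afterwards. From the S1 segment of the proximal tubule (PT-S1) at 24 h there were 8 libraries of 3 sham animals and 9 of 4 UNx animals. At 72 h it gave 12 libraries from 5 animals in each group. The cortical collecting duct (CCD) at 24 h gave 8 libraries of 4 sham animals and 7 of 3 UNx animals, and at 72 h 7 sham and 6 UNx libraries, each from 4 animals. The animal was the replicate, read from the number in the sample titles. No label says whether the same animals gave both segments. A dissected tubule is a bulk sample, in which fewer cells of a type and less RNA per cell cannot be told apart.

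In G1, growth signals raise the D-type cyclins, which bind and activate CDK4 and CDK6. These kinases phosphorylate the retinoblastoma protein, which then releases E2F factors that switch on genes for DNA replication. INK4 proteins block CDK4 and CDK6 directly. Cip/Kip proteins bind cyclin-CDK complexes more widely, and p27, the product of Cdkn1b, is held high in resting cells and is removed largely by protein degradation through the SKP2 ubiquitin ligase. After the loss of a kidney the remaining one grows mostly by enlargement of its tubule cells, with some division.

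A pair of promoter windows is shown because it belongs to the gene with the widest difference between operations in CCD and to a gene whose levels there stayed close together. Each holds the 250 bases before the RefSeq start site on build GRCm38.p6, an earlier build than the one used for the expression values. Cdkn1b lies on the plus strand with its window at chr6:134920151-134920400, and Cdk4 on the plus strand with its window at chr10:127063285-127063534. Capitals mark CCAAT and GGGCGG, the CCAAT and GC boxes, in Cdkn1b, and CACGTG, an E-box, and the GC box on the opposite strand (CCGCCC) in Cdk4.
Cdkn1b: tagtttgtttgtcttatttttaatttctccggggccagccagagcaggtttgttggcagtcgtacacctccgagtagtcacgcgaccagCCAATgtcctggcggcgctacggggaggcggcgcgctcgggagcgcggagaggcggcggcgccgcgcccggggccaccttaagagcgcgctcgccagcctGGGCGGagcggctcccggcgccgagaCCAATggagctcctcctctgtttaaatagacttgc
Cdk4: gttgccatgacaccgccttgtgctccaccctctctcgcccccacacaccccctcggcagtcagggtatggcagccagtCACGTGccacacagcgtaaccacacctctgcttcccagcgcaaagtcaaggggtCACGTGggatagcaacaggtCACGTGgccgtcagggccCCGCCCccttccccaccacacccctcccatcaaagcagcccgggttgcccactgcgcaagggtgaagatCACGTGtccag

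The Cdkn1b window holds 2 copies of CCAAT, beginning 161 and 35 bases before the start, and 1 copy of GGGCGG beginning 61 bases before it. The Cdk4 window holds 4 copies of CACGTG, beginning 172, 118, 98 and 11 bases before the start. Both windows have a GC content of 64.4%, against a median of 52.4% over the 32851 start-site windows of the RefSeq table. On either strand, GGGCGG is present in 32.7% of those windows, CCAAT in 33.8% and CACGTG in 6.02%, while 7 windows (0.0213%) hold 4 or more copies of CACGTG. Windows were found for 7 of the 10 genes, with 10 start sites. None of those 10 windows holds TTTCCCGC, TTTGGCGC or TTTCGCGC, forms of the E2F site that 0.895%, 0.417% and 0.256% of all windows hold. Cdk6 has 1 copy of CACGTG, and GTAAACA, a FOXO site, is found in 1 window of Ccnd3 against 3.17% of all windows. These matches are of letters and do not show that a factor binds. The motifs searched do not overlap one another in the windows printed.

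Marker genes matched the segment named in the labels. The summed TPM of 8 proximal tubule genes was 2000 to 19378 in PT-S1 libraries and 11.8 to 125 in CCD libraries, and 7 principal-cell genes summed to 22133 to 73787 in CCD and 51.6 to 158 in PT-S1. Each library was compared with all others of the same segment and time, of either operation. In this comparison 5 libraries had a median correlation under 0.92: 2 of PT-S1 24 h sham, 2 of PT-S1 72 h UNx and 1 of CCD 72 h sham. The others lay between 0.945 and 0.973. The 2 PT-S1 72 h UNx libraries also had the fewest genes at 1 TPM or more, 9247 and 9632, against 11198 to 11954 in the rest of that group. Their proximal tubule sums, 2000 and 2048 TPM, were the lowest of PT-S1. The rest of that group had 13515 to 16353 TPM. TPM carries no sequencing depth, so no counting error could be given.

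In CCD at 24 h, UNx animals had far less Cdkn1b and Ccnd1 mRNA than sham animals, while the differences of the other 8 genes lay between -0.40 and 0.27 on the log2(TPM + 1) scale. Cdkn1b encodes p27, the inhibitor that holds cells in quiescence. The 4 sham animals had 15.96, 14.2, 10.4 and 12.9 TPM, and the 3 UNx animals had 3.50, 4.75 and 3.08 TPM. The groups did not overlap, and the lowest sham animal was above every UNx animal by more than the SD of either group. The means were 13.4 ± 2.33 TPM (SD, n = 4) and 3.77 ± 0.865 TPM (SD, n = 3), a ratio of UNx to sham of 0.282. On that log2 scale, on which every difference is given, UNx minus sham was -1.61 with a standard error of 0.18. The single libraries gave the same separation, with 8.91 to 16.9 TPM in the 8 sham and 2.14 to 5.44 TPM in the 7 UNx libraries.

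Ccnd1, the D-type cyclin most closely tied to growth factor signals, had the second largest difference. The sham animals had 109, 81.5, 101 and 78.5 TPM and the UNx animals 42.9, 43.4 and 53.5 TPM. Again the groups were apart, with means of 92.5 ± 14.9 TPM (SD, n = 4) and 46.6 ± 5.98 TPM (SD, n = 3), a ratio of 0.504 and a difference of -0.99 (SE 0.14). An inhibitor and an activating cyclin of G1 were thus both lower in the same animals.

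Cdk6, the kinase partner of the D-type cyclins that is less abundant here, was also lower in every UNx animal. Its level was 15.8, 16.9, 17.0 and 15.7 TPM in sham and 10.98, 14.2 and 13.4 TPM in UNx, a difference of -0.33 (SE 0.11). Ccnd3, the most abundant of the D-type cyclins, and the INK4 inhibitor Cdkn2d were higher in every UNx animal, by small amounts. Ccnd3 was 205, 197.5, 177 and 197.2 TPM in sham and 224, 219 and 218 TPM in UNx, a difference of 0.19 (SE 0.07). Cdkn2d was 28.0, 28.3, 30.1 and 29.4 TPM in sham and 30.3, 36.1 and 35.5 TPM in UNx, a difference of 0.21 (SE 0.09), and the nearest animals of the 2 groups differed by less than the spread within UNx.

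The other 5 genes overlapped between operations in CCD at 24 h. Cdkn1a, which encodes the p53-induced inhibitor p21, was 63.8 to 101 TPM in sham and 67.0 to 70.9 TPM in UNx, and its UNx animals fell within the sham range. Cdkn2c, an INK4 inhibitor, was 13.2 to 17.3 TPM in sham and 15.2 to 21.0 TPM in UNx. Cdk4, the main kinase partner of the D-type cyclins here, was 165 to 195 TPM in sham and 166 to 198 TPM in UNx, a difference of -0.02 (SE 0.09). Cdkn1c, the inhibitor p57, and Ccnd2, a further D-type cyclin, were low, with group means of 5.50 and 3.55 TPM for Cdkn1c and 4.91 and 6.10 TPM for Ccnd2 in sham and UNx.

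For context, limma with Benjamini-Hochberg adjustment at 0.05 called 136 of 13775 genes in CCD at 24 h, or 0.987%, of which 91 (0.661%) were lower in UNx. No member was among the 45 higher genes (0.327%). Cdkn1b and Ccnd1 were the 2 of the 10 genes called, and nothing is read from that count because the set was chosen on this contrast. Groups that did not overlap were found for 5 of the 10 genes (2 higher and 3 lower in UNx). Over all genes tested the share was 15.1%, made up of 5.55% higher and 9.51% lower in UNx. Nothing is read from this count either, for the same reason.

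The differences were looked at beside the markers of CCD cell types. The summed principal-cell markers were 24909 to 51824 TPM in sham libraries and 47194 to 73787 TPM in UNx libraries. Thus 5 of the 7 UNx libraries lay above every sham library, and no marker of that list was at 0. Gene by gene, none of the 7 markers was called or free of overlap, with a list median of 0.01 against -0.04 for all genes. A higher sum was thus not a rise of the typical marker of the list. Sham animals 2 and 3 and UNx animal 2 overlapped in this sum, between 47194 and 51824 TPM. Over that range the 3 sham libraries had 10.4 to 14.6 TPM of Cdkn1b and the 2 UNx libraries 4.05 and 5.44 TPM. For Ccnd1 the same libraries had 72.9 to 101 TPM and 31.8 and 55 TPM. These 2 UNx libraries are of a single animal, and the part of cell composition in the differences was not tested. Intercalated-cell markers summed to 3732 to 4726 TPM in sham and 3779 to 5021 TPM in UNx. Thick ascending limb markers were 6913 TPM in 1 library of sham animal 2 and 1428 TPM in 1 of sham animal 1, against 58.5 to 435 TPM in the others, and those libraries had 13.7 and 14.98 TPM of Cdkn1b.

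**Figure D1:**
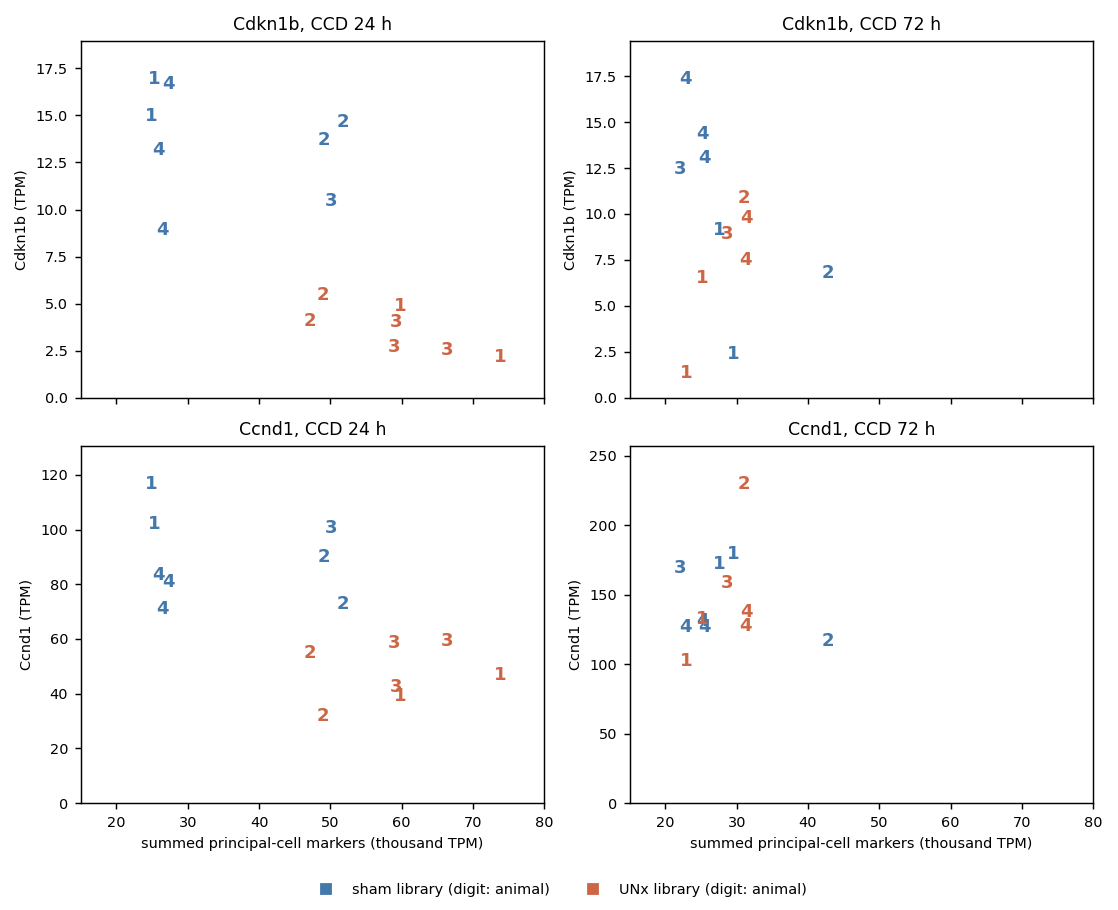
Cdkn1b (top) and Ccnd1 (bottom) in TPM against the summed TPM of 7 principal-cell markers (axis in units of 1000 TPM) in each CCD library at 24 h (left) and 72 h (right), where each digit is the animal number, in blue for sham and orange for UNx. At 24 h every UNx library lies at 5.44 TPM of Cdkn1b or below and every sham library at 8.91 TPM or above, while at 72 h the colours are mixed.

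At 72 h in CCD, Cdkn1b and Ccnd1 overlapped between operations. Cdkn2c, the gene for the INK4 inhibitor p18, was the only 1 of the 10 whose groups did not overlap. The 4 sham animals had 9.44, 11.04, 10.5 and 12.96 TPM of Cdkn2c, and the 4 UNx animals had 20.7, 21.99, 18.2 and 17.6 TPM. The lowest UNx animal was above the highest sham animal by more than the SD of either group. The means were 10.99 ± 1.47 TPM and 19.6 ± 2.06 TPM (SD, n = 4 each), a ratio of 1.79 and a difference of 0.79 (SE 0.14), or 0.83 without the library of low correlation. By limma, 82 of 13770 genes (0.595%) were called at 72 h, 80 of them higher in UNx (0.581%), and Cdkn2c was the 1 gene of the 10 among these. As at 24 h, nothing is read from that count. Cdkn2c was among the called genes in 11 of 21 alternative settings, and in 1 of the 8 that left out an animal. Groups without overlap were seen for 4.77% of all genes, 3.23% with UNx higher, and nothing is read from the 1 member among them. The proliferation markers described below were higher in the same UNx libraries, with summed levels of 375 to 519 TPM against 109 to 274 TPM in sham, and their part in the Cdkn2c difference was not tested.

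Cdkn1b at 72 h was 5.75, 6.81, 12.4 and 14.9 TPM in sham and 3.92, 10.9, 8.91 and 8.62 TPM in UNx. The groups overlapped and the spread was wide, with means of 9.98 ± 4.41 TPM and 8.08 ± 2.95 TPM (SD, n = 4 each) and a difference of -0.26 (SE 0.39). Libraries of 1 animal also differed widely, with 2.37 and 9.13 TPM in sham animal 1 and 1.35 and 6.49 TPM in UNx animal 1. The difference was 0.07 without UNx animal 1 and -0.06 without the library of low correlation, which is the 9.13 TPM library of sham animal 1. Whether the Cdkn1b difference at 24 h is larger than that at 72 h was not tested, because the contrast chose the gene. Nor were the times compared by a test for Ccnd1 or for Cdkn2c, whose difference at 24 h was 0.27 (SE 0.13).

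Ccnd1 at 72 h was 176, 117, 169 and 128 TPM in sham and 117, 229, 158 and 133 TPM in UNx. Neither group stood above the other, and the difference was 0.08 (SE 0.21), which turned to -0.02 without sham animal 2 and to -0.11 without UNx animal 2. Every CCD animal at 72 h, of either operation, had more Ccnd1 than any CCD animal at 24 h, although the tables of the 2 times were normalized separately. Cdkn2d was 24.9 to 34.6 TPM in sham and 26.8 to 54.3 TPM in UNx, with the highest values in UNx animals 1 and 2. The remaining genes overlapped, with differences between -0.33 for Cdkn1c and 0.31 for Ccnd2, and the sign of the Cdkn1a, Ccnd2, Ccnd3 and Cdk6 differences turned when 1 animal was left out. Without UNx animal 2, whose single library had 25.8 TPM, the Ccnd2 difference was -0.26.

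**Figure D2:**
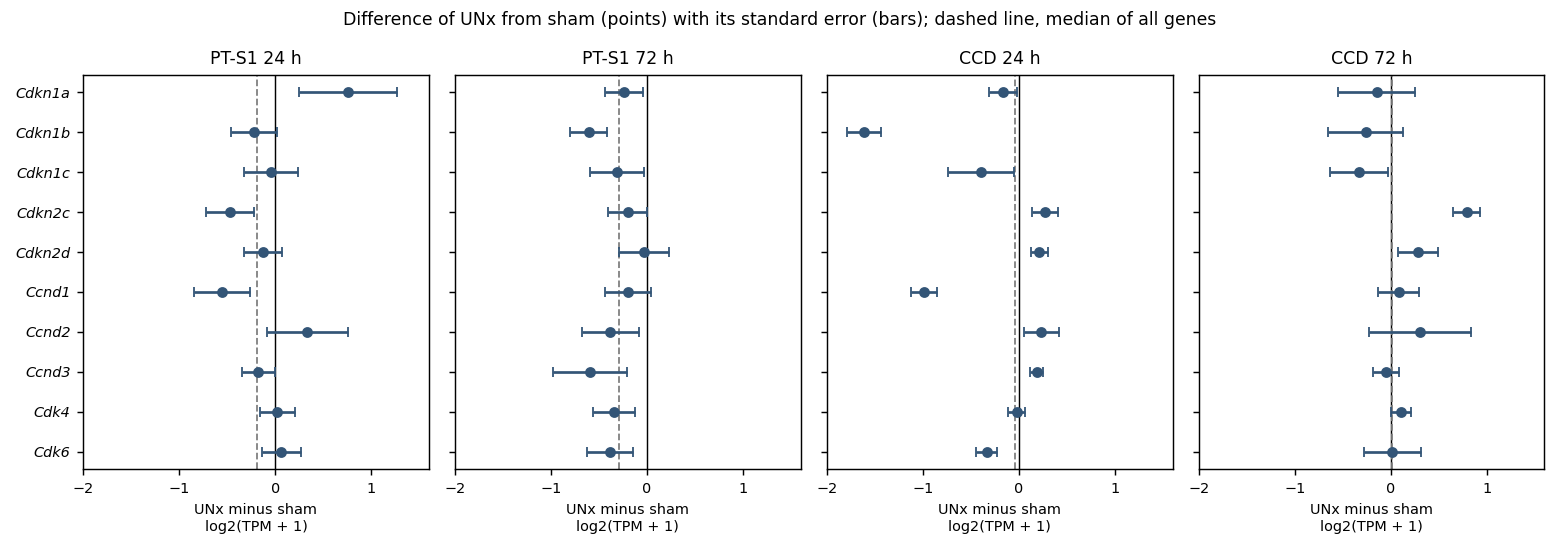
Difference of UNx from sham on the log2(TPM + 1) scale (horizontal axis) for the 10 genes in each of the 4 tables, as points with standard errors from the limma fit, with a dashed line at the median of all genes tested. In CCD at 24 h Cdkn1b lies at -1.61 and Ccnd1 at -0.99, and in CCD at 72 h Cdkn2c lies at 0.79.

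In proximal tubule the contrast was tested, because the choice of genes named a change in collecting duct only. Earlier results of these data were known when the set was chosen. At 24 h none of the 10 genes passed, and neither did any of the 11874 genes tested (0%), by limma with Benjamini-Hochberg adjustment, with a smallest adjusted p of 0.109. At an unadjusted 0.05, limma gave 2109 genes (17.8%) and none of the 10. Groups did not overlap for 14.9% of genes and for none of the 10. The median of all genes was -0.19, so values near it are shared with the bulk of genes. Cdkn1a had the largest difference of the set. The 3 sham animals had 3.40, 3.10 and 4.53 TPM and the 4 UNx animals 1.41, 8.72, 14.5 and 18.8 TPM. UNx animals 2, 3 and 4 were above all sham animals and UNx animal 1 was below them. The means were 3.67 ± 0.759 TPM (SD, n = 3) and 10.9 ± 7.54 TPM (SD, n = 4), a difference of 0.76 (SE 0.51, limma adjusted p = 0.414), or 0.71 without the 2 sham libraries of low correlation. Leaving out UNx animal 3 gave 0.44 and leaving out UNx animal 1 gave 1.33.

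In PT-S1 24 h UNx the SD of Cdkn1a on the log2 scale was 1.07 between libraries of an animal and 1.17 between animals. UNx animal 4 had libraries at 48.5, 2.83 and 5.06 TPM, and UNx animal 3 had 10.7 and 18.4 TPM. In UNx animal 2 the libraries had 11.2 and 6.28 TPM and in UNx animal 1 they had 1.82 and 1.00 TPM. All 8 sham libraries lay between 2.03 and 5.20 TPM, so the high values at 24 h came only from UNx tubules. At 72 h single sham libraries reached 28.3 TPM, above every UNx library of that time, whose highest was 13.3 TPM.

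**Figure D3:**
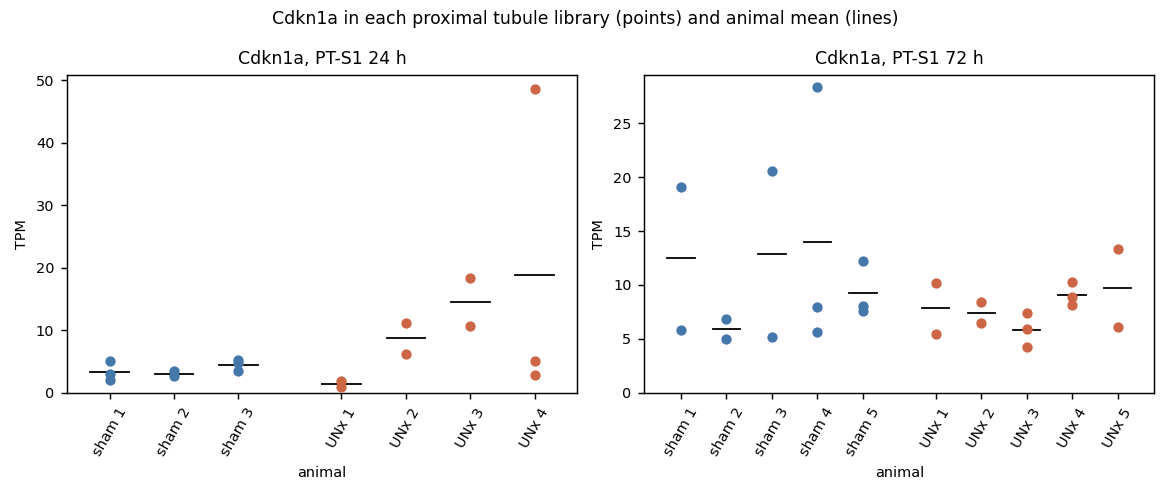
Cdkn1a in TPM (vertical axis) in each PT-S1 library (points) by animal (horizontal axis), with the mean of each animal as a line, at 24 h (left) and 72 h (right) in sham (blue) and UNx (orange). At 24 h the sham libraries stay at or under 5.20 TPM and 1 UNx library reaches 48.5 TPM, and at 72 h the highest library, at 28.3 TPM, is sham.

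Among the other inhibitors at 24 h, Cdkn2c was 21.4, 19.9 and 16.4 TPM in sham and 13.4, 12.9, 8.97 and 20.6 TPM in UNx, so 3 of 4 UNx animals lay below the sham range, with a difference of -0.47 (SE 0.25, limma adjusted p = 0.321) that ran from -0.67 to -0.30 when an animal was left out. Cdkn1b was low throughout, at 0.905 to 1.83 TPM in sham and 0.570 to 1.41 TPM in UNx, with a difference of -0.22 (SE 0.24, limma adjusted p = 0.599). Ccnd1 was 62.5, 52.5 and 28.4 TPM in sham and 22.6, 25.6, 37.5 and 40.9 TPM in UNx, with a difference of -0.55 (SE 0.29, limma adjusted p = 0.318), which was -0.33 without sham animal 1 and -0.88 without sham animal 3. The sham range of Ccnd1 spanned most of the UNx range. Cdkn1c, Cdkn2d, Ccnd2, Ccnd3, Cdk4 and Cdk6 had differences between -0.17 and 0.33, and the sign for Cdkn1c, Cdkn2d and Ccnd3 turned under another scaling of the libraries.

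At 72 h again none of the 10 genes passed in PT-S1, and none of 11886 genes did (0%), with a smallest limma adjusted p of 0.237. At an unadjusted 0.05, limma gave 2432 genes (20.5%) and 1 of the 10, Cdkn1b. Groups did not overlap for 5.56% of genes and again for none of the 10. The median of all genes was -0.29. The 5 sham animals had 3.46, 2.39, 4.41, 2.94 and 3.51 TPM of Cdkn1b, and the 5 UNx animals had 1.22, 1.35, 2.58, 2.53 and 1.76 TPM. UNx animals 3 and 4 lay inside the lower end of the sham range and the other 3 below it. The means were 3.34 ± 0.748 TPM and 1.89 ± 0.642 TPM (SD, n = 5 each), a difference of -0.61 (SE 0.19, limma adjusted p = 0.237). Set against the median gene, the difference was -0.32. Without the 2 UNx libraries of low correlation the difference was -0.74 (limma adjusted p = 0.209).

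At 72 h the animals of UNx were spread more widely than those of sham for the other genes of the set except Cdkn1a, for which the sham animals had the wider spread. Ccnd3 ranged from 92.6 to 109 TPM in sham and was 43.3, 46.9, 105, 131 and 102 TPM in UNx, where animals 1 and 2 hold those libraries. Cdk4 was 141 to 160 TPM in sham and 90.8, 95.6, 136, 142 and 158 TPM in UNx, with the same 2 animals lowest. The limma differences were -0.60 for Ccnd3 (SE 0.39, adjusted p = 0.329) and -0.35 for Cdk4 (SE 0.22, adjusted p = 0.318), and without the 2 libraries they were -0.08 and -0.02. For Cdkn2d, UNx animal 4 was at 22.5 TPM, where the sham animals had 9.56 to 13.2 TPM. Differences of the remaining genes ran from -0.39 for Cdk6 to -0.20 for Cdkn2c, and rescaling the libraries turned the sign for Cdkn1a, Cdkn2c, Ccnd1 and Cdk4.

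Whether the effect of UNx on PT-S1 changed between 24 h and 72 h was tested as the difference of both effects. No gene of 11455 passed (0%), and none of the 10, with a smallest limma adjusted p of 0.998, and 381 genes (3.33%) and none of the 10 had an unadjusted value under 0.05. Cdkn1a had the widest shift, -1.0, with a 95% interval from -2.14 to 0.14. Those of Cdkn1b and Ccnd1 were -0.39 (from -0.99 to 0.22) and 0.35 (from -0.48 to 1.18). Shifts within those intervals could not be told from 0 with these animals.

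The segments differed in which inhibitor was abundant. Values of PT-S1 and CCD come from tables treated as normalized separately and are set side by side with no test. In sham animals, mean Cdkn1a was 3.67 TPM in PT-S1 and 78.5 TPM in CCD at 24 h, a ratio of CCD to PT-S1 of 21.4, and 10.9 and 60.2 TPM at 72 h, a ratio of 5.52. Mean Cdkn1b was 1.34 and 13.4 TPM at 24 h and 3.34 and 9.98 TPM at 72 h, ratios of 9.98 and 2.99. For both genes every CCD sham animal was above every PT-S1 sham animal of that time. Cdkn2d and Cdk6 showed the same order, with ratios of 2.60 and 2.70 for Cdkn2d and of 3.29 and 4.995 for Cdk6. So did Ccnd1, with ratios of 1.935 and 2.75, and Cdk4, with 1.44 and 1.275. How many of all genes share this order was not counted.

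Cdkn2c had the opposite order. Its sham means were 19.3 TPM in PT-S1 and 14.8 TPM in CCD at 24 h, where the animals overlapped, and 22.1 and 10.99 TPM at 72 h, where they did not. In UNx animals at 72 h the means were 19.6 TPM in both segments. Thus Cdkn2c in CCD after UNx lay at the level of PT-S1, with animals of 13.8 to 28.5 TPM in PT-S1 and 17.6 to 21.99 TPM in CCD.

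Among the D-type cyclins, Ccnd3 was the most abundant per length in all 8 groups, with group means of 85.7 to 258 TPM, followed by Ccnd1 with 31.6 to 159 TPM. Ccnd2 stayed at group means of 3.26 to 10.1 TPM, with every group overlapping the next in order. For Ccnd1 the 2 CCD 72 h groups were highest, then CCD 24 h sham, and CCD 24 h UNx fell among the PT-S1 groups at 46.6 TPM. Of the kinases, Cdk4 had group means of 124 to 202 TPM and Cdk6 of 3.05 to 19.6 TPM. By the ratio of the highest to the lowest group mean, Cdk4 varied least of the 10 genes. Its 4 CCD groups overlapped each other in sequence, as did its 4 PT-S1 groups. The segments did not overlap: every CCD animal had at least 165 TPM and every PT-S1 animal at most 160 TPM.

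**Figure D4:**
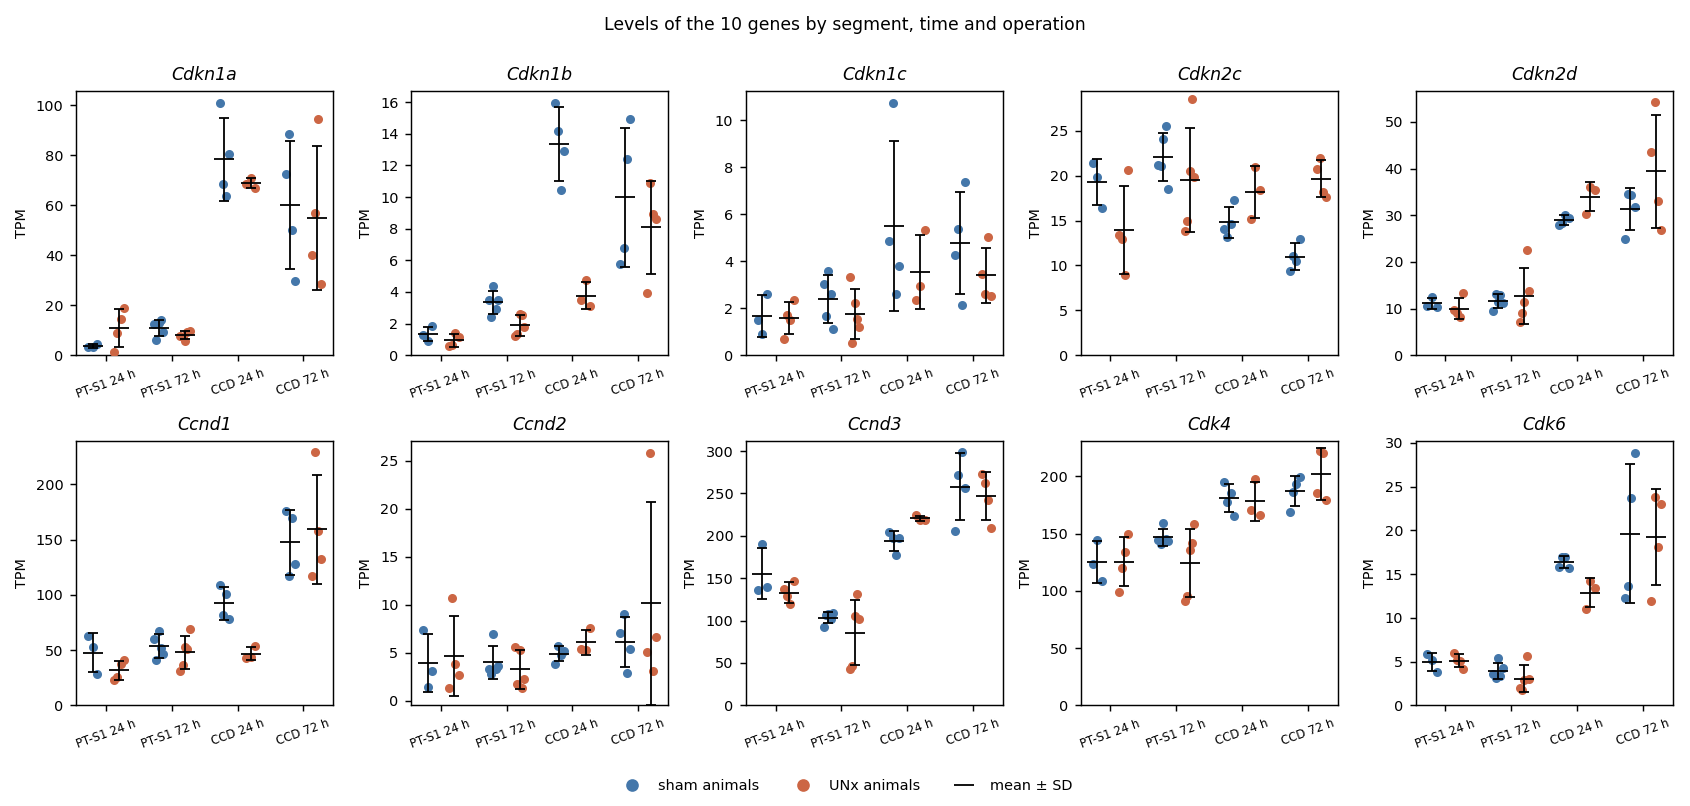
TPM (vertical axes, each with its own range) of the 10 genes in every animal (points), by segment and time and by operation (sham blue, UNx orange), with the mean and SD of each group in black. Cdkn1a, Cdkn1b, Cdkn2d, Ccnd1, Cdk4 and Cdk6 are higher in CCD than in PT-S1 at the same time and operation. The CCD 24 h UNx animals of Cdkn1b, at 3.08 to 4.75 TPM, lie far under their sham animals.

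The other genes of G1 control and of the cell cycle were read from 6 lists in the same fits. Beside the list counts for CCD stand the shares of all genes called, 0.987% at 24 h and 0.595% at 72 h. In CCD the proliferation markers were higher in UNx at both times. At 24 h 11 of 18 were called higher by limma and none lower, with a list median of 1.35 against -0.04 for all genes, and at 72 h 14 of 18 were called higher and none lower, with a median of 1.74 against 0.01. Examples at 24 h are Prc1, a spindle midzone protein (4.63 to 17.2 TPM, difference 1.73, SE 0.19, limma adjusted p = 0.0118), and the mitotic kinase Plk1 (2.06 to 6.81 TPM, 1.41, limma adjusted p = 0.0210). At 72 h Mcm3, a replication helicase subunit, had means of 6.64 and 23.1 TPM (1.71, SE 0.17, limma adjusted p = 0.00634). The lower Cdkn1b and Ccnd1 at 24 h and the higher Cdkn2c at 72 h were thus measured in groups whose proliferation markers were higher. At 24 h the count dropped to 1 on leaving out UNx animal 1, UNx animal 2 or sham animal 1, and to between 2 and 8 on leaving out any other animal. At 72 h it was 2 without UNx animal 2 or 3, 4 without UNx animal 1 and 10 to 14 without any of the others.

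Of the cyclins, CDKs and inhibitors outside the set, limma called 2 of 10 higher in CCD at 24 h. At 72 h it called 3 of 10 higher, and none was called lower at either time. Groups were apart for 6 of these genes at 24 h, all higher in UNx, and for 5 higher and 1 lower at 72 h. The lower 1 was the inhibitor Cdkn2b, not called, with differences of -0.51 at 24 h and -1.04 at 72 h. With the replicate number as a block no gene of this list was called at either time. Ccna2, the S phase cyclin, rose at both times, from 2.44 to 9.96 TPM at 24 h (difference 1.71, SE 0.29, limma adjusted p = 0.0355) and from 2.83 to 15.5 TPM at 72 h (2.26, SE 0.24, limma adjusted p = 0.00794). Cdkn3, a CDK-directed phosphatase, rose at both times too, by 1.40 and 2.01. Ccne1, the cyclin that follows the D-type cyclins at the end of G1, passed at 72 h (1.16 to 4.70 TPM, limma adjusted p = 0.0184) and not at 24 h (1.31 to 4.88 TPM, limma adjusted p = 0.0956). Of the Rb and E2F proteins, none of 13 passed at 24 h and 1 of 12 at 72 h. That gene was E2f1, an activator of replication genes, which rose from 0.629 to 5.05 TPM (1.96, SE 0.19, limma adjusted p = 0.00634) and stood at 0.595 and 3.05 TPM at 24 h (limma adjusted p = 0.0695). At 72 h Ccna2 and E2f1 passed in all 8 fits that left out an animal, Ccne1 in 4 and Cdkn3 in 3. At 24 h, over 7 such fits, Ccna2 passed in 0 and Cdkn3 in 1.

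Of the p27 degradation machinery, 1 of 9 genes was called in CCD at each time. Cks1b, the cofactor with which SKP2 recognises p27, rose from 16.7 to 28.6 TPM at 24 h (0.74, SE 0.11, limma adjusted p = 0.0292) and from 15.4 to 34.2 TPM at 72 h (1.10, SE 0.14, limma adjusted p = 0.0108). With an animal left out it passed in 1 of 7 fits at 24 h and in 5 of 8 at 72 h. The ligase subunit Skp2 itself had a difference of 0.04 at 24 h, with groups that overlapped. At 72 h it was 2.79 and 3.39 TPM (limma adjusted p = 0.879). These are mRNA levels, and p27 protein was not measured. Of p53 and its targets, none of 20 passed at either time, with list medians of -0.32 and -0.07. Mdm4, a p53 inhibitor, had the smallest adjusted p of that list at 24 h (25.1 and 15.7 TPM, -0.67, limma adjusted p = 0.0697). Of the 15 genes tested among inducers of D-type cyclins, 1 fell at 24 h and none passed at 72 h. It was Yap1, a Hippo pathway coactivator, with means of 29.6 and 18.5 TPM (-0.66, SE 0.12, limma adjusted p = 0.0479), and it passed in 0 of the 7 fits that left out an animal.

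In PT-S1 no gene of the 6 lists was called at either time in the limma fit without array weights for the animals. With array weights 15 proliferation markers were called at 72 h, and 4 inducers of D-type cyclins and 3 Rb and E2F genes at 24 h. At 24 h the list medians lay between -0.52 for the inducers of D-type cyclins and 0.24 for the 10 proliferation markers tested, against -0.19 for all genes. Jun, an immediate early gene, had means of 40.5 and 20.6 TPM (-0.97, SE 0.26, limma adjusted p = 0.254). At 72 h the 16 proliferation markers tested had a median of 1.147 against -0.29 for all genes, while the other 5 lists lay between -0.41 and -0.20. Prc1 and Top2a did not overlap between groups, with 0.980 and 5.59 TPM for Prc1 (1.61, SE 0.33, limma adjusted p = 0.237) and 0.573 and 2.65 TPM for Top2a (1.14, SE 0.30, limma adjusted p = 0.237). The 10 genes had medians of -0.09 and -0.33 in PT-S1 and of -0.09 and 0.05 in CCD at 24 h and 72 h.

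**Figure D5:**
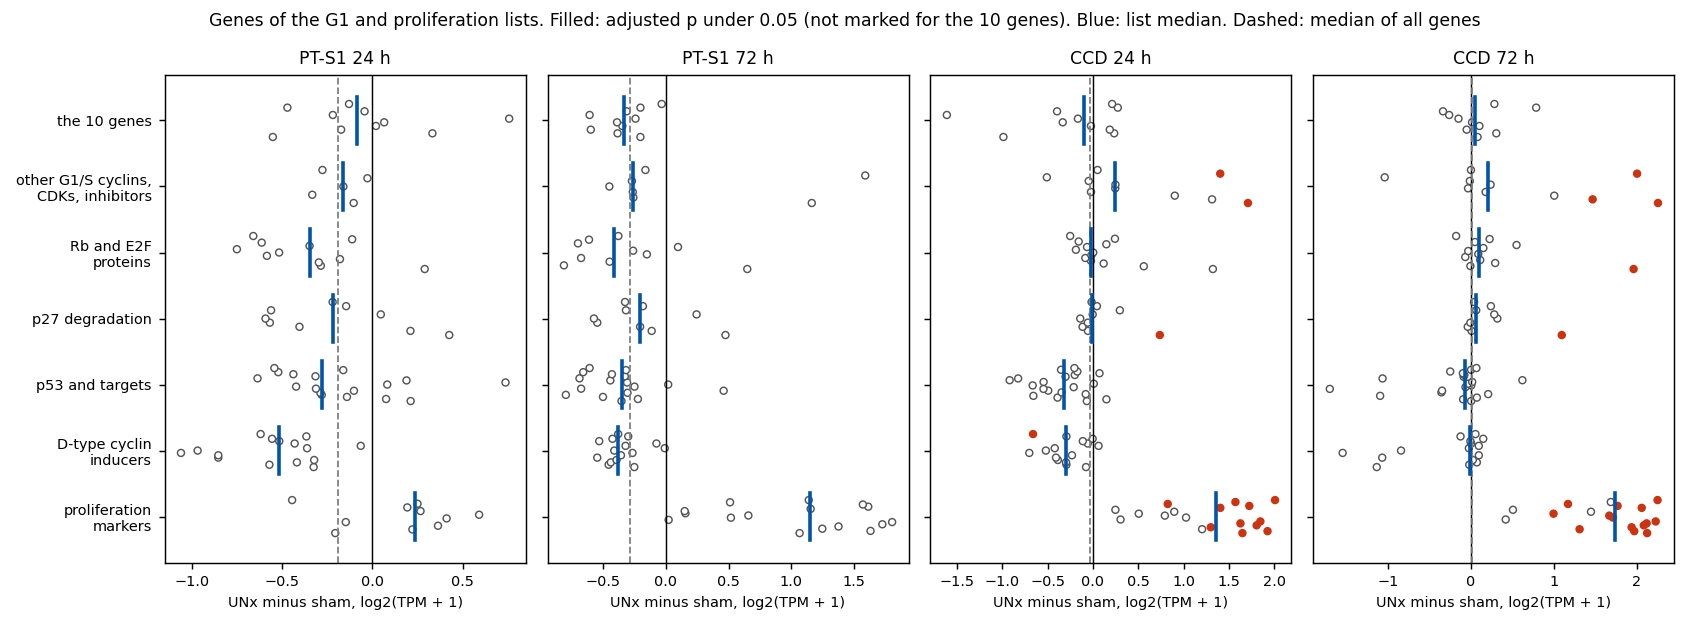
Differences of UNx from sham on the log2(TPM + 1) scale (horizontal axis) for the genes of 7 lists in each table, with called genes filled (not marked for the 10 genes), list medians in blue and the median of all genes dashed. Filled points occur only in CCD, mostly among the proliferation markers, whose medians are 1.35 at 24 h and 1.74 at 72 h.

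Likeness between genes was measured as the Pearson correlation of log2(TPM + 1) deviations from the group mean. It ran over 32 means of an animal in a segment, among 7515 genes with a mean of at least 5 TPM in each table. An animal that gave both segments, which no label tells, would enter for each. The animals share group means and library composition, so these values are a description with no test. Cdkn1a was most like Ctnnbip1 (r = 0.763), Bax (0.757) and Exosc8 (0.685), and without the 5 libraries of low correlation these were 0.700, 0.729 and 0.653. Cdkn2c was most like Maged2 (0.851), Oat (0.821) and Prpf38a (0.819), which had 0.561, 0.543 and 0.778 without those libraries. Cdkn2d was most like Kpna2, Mid1ip1 and Dnttip1 (0.844 to 0.852), and Ccnd1 most like Bnip1, Cebpg and Epc1 (0.731 to 0.750). Without those libraries these fell to between 0.607 and 0.747 for Cdkn2d and between 0.625 and 0.697 for Ccnd1. For Ccnd3 the closest was Nelfb at 0.963, which dropped to 0.176 without the 5 libraries, and for Cdk4 it was Rela at 0.901, which dropped to 0.460. Both values therefore rested on few libraries.

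Among the 10 genes, Cdkn2c and Cdkn2d varied together from animal to animal (r = 0.764, or 0.702 without the 5 libraries), as did Cdkn2d and Ccnd3 (0.801, or 0.681) and Ccnd1 and Cdk4 (0.684, or 0.649). Ccnd3 and Cdk4 had r = 0.819 with all libraries and 0.135 without the 5. Cdkn1a showed little relation to Cdkn2c (-0.09) or Cdkn2d (0.06). Cdkn1b, Cdkn1c, Ccnd2 and Cdk6 were under 5 TPM on average in at least 1 table and were not compared in this way.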

How the data were processed

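TPM values per gene and library were deposited by the authors in 4 tables, 1 for each segment and time. Per the labels' protocols, a Zymo kit was used for extraction and the SMART-Seq V4 kit for cDNA of polyA RNA, and per the submitters' processing notes STAR, RSEM 1.3.3 and the genome build GRCm39 were used. The annotation release is not given in the sources used here. All 69 columns were used, of which 51 matched 1 sample by name and 18 gave only the group and animal. TPM keeps no depth, and the 4 tables were treated as normalized separately, so tests were made within a table.

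Libraries of an animal were averaged on log2(TPM + 1), a scale that understates the change of low genes, and genes with a mean of at least 1 TPM over the animals were kept. The UNx and sham animals of a table were fitted with limma 3.58.1 (R 4.3.3) using a mean-variance trend, two-sided, with Benjamini-Hochberg adjustment over all genes tested and a threshold of 0.05. The difference of the PT-S1 effects was taken in a model of all 4 PT-S1 groups. The fit was tested on simulated data. Fold ratios are of mean TPM over animals.

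The members and lists were chosen with earlier results of these data known. All 10 genes were named, and at most 3 genes per list and table by the smallest p. Cdkn2b in CCD, and Skp2 in CCD at 24 h, were given outside that rule. The 3 genes of highest correlation were named as most like a member. Promoter windows came from the RefSeq table, matched by symbol. Other pseudocounts, filters, scalings, replicate units and weights were tried, each animal was left out in turn, and list counts were recomputed likewise, the last chosen after seeing the data.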

Additional observations from a re-analysis of the deposited data

Results flagged for a closer look

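Of 60 sets of 4 or 5 animals, each of 1 gene in 1 group, 3 held an animal far from the others in a gap test at the 95% level. Chance alone marks about 1 set in 20, or about as many as were seen. Sets of different genes hold the same animals and are not independent. Ccnd2 in CCD 72 h UNx animal 2, which gave a single library, was 25.8 TPM, against 3.06 to 6.69 TPM in the other 3 animals. Ccnd2 in PT-S1 72 h sham animal 3 was 6.97 TPM, against 2.77 to 3.64 TPM in the other 4. Cdk4 in that same animal was 159.6 TPM, against 140.7 to 145.0 TPM in the other 4.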

How the results depend on the processing

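CCD member values moved by less than the SD between animals under every alternative run, but those near 0 changed sign in some. In CCD 24 h Cdk4 reached 0.03 with median-ratio scaling. In CCD 72 h Cdkn1a reached 0.31 and Cdk6 -0.28 with array weights, and with an animal left out Cdkn1a reached 0.12, Cdkn1b 0.07, Ccnd1 -0.11, Ccnd2 -0.26, Ccnd3 0.03 and Cdk6 -0.17. Cdkn1b at 24 h ranged from -1.84 to -1.51, Ccnd1 from -1.09 to -0.90, and Cdkn2c at 72 h from 0.66 to 0.86. The replicate block kept only animal numbers found in both groups, so sham animal 4 was left out in CCD 24 h. It also fitted a term for each number, which left few degrees of freedom to detect a difference. The count of called members depended on the setting. In CCD 24 h it was 0 with no filter on low values, 0 with the replicate block, 3 with every library as a replicate (Ccnd3 added), and 0 to 2 when each animal was left out (0 without UNx animal 1). In CCD 72 h it was 0 with no filter, 0 with at least 5 TPM, 0 with the block, and 0 to 1 when each animal was left out (1 without sham animal 4 only). With array weights 1 member was called in PT-S1 24 h (Ccnd1, -0.85, limma adjusted p = 0.0342) and 1 in PT-S1 72 h (Cdkn1b, -0.52, limma adjusted p = 0.0330), against 0 otherwise.

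Calls over all genes moved more. In PT-S1 24 h they went from 0 to 1426 with array weights, 85 with every library as a replicate, 100 with the animal as a random effect, 80 with the block and up to 8 with an animal left out. In PT-S1 72 h they went from 0 to 1346, 18 and 10 in the first 3 of those settings. Without the low-correlation libraries both had 1 call, and rescaling or no filter gave 1 or 2 at 24 h. In CCD 24 h 136 became 1027 and 485 with libraries as replicates or animals random, 1 with no filter, 0 with the block and 7 to 78 with an animal left out. In CCD 72 h 82 became 150 with every library, 7 with no filter, 39 with at least 5 TPM, 3 with the block, 129 without the low-correlation libraries and 8 to 73 with an animal left out. The shift between times in PT-S1 went from 0 to 376 with array weights and 187 without those libraries. In CCD the called proliferation markers were 0 at 24 h and 2 at 72 h both with the block and with no filter, and 17 at 72 h without the low-correlation library. With the block none of the other 5 lists had a call in CCD, and with no filter E2f1 and 1 other cyclin or inhibitor, both at 72 h, were left. In PT-S1 array weights gave 1 to 4 calls per list at 24 h except the other cyclins (0), and at 72 h 15 proliferation markers and 1 to 3 calls in each other list.

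PT-S1 member values that changed sign were uncalled. At 24 h they were, with quantile normalization, Cdkn1c 0.11 and Cdkn2d 0.10; with median-ratio scaling, Cdkn1c 0.077, Cdkn2d 0.078 and Ccnd3 0.062; with array weights, Cdkn1c 0.25 and Cdk4 -0.20. Cdk4 was -0.0038 on log2 of mean TPM, -0.069 with the block and -0.12 without the low-correlation libraries. With an animal left out, Cdkn1c ran from -0.26 to 0.20, Ccnd2 from -0.034 to 0.65, Cdk4 from -0.075 to 0.14 and Cdk6 from -0.068 to 0.15. At 72 h they were, with quantile normalization, Cdkn1a 0.088, Cdkn2c 0.085, Cdkn2d 0.30 and Ccnd1 0.013, and with median-ratio scaling, Cdkn1a 0.12, Cdkn2c 0.17, Cdkn2d 0.31, Ccnd1 0.18 and Cdk4 0.039. Cdkn2d was 0.032 with every library, 0.024 with the animal random, 0.034 on log2 of mean TPM, 0.28 with array weights, 0.21 without the low-correlation libraries and -0.26 to 0.14 with an animal left out. With array weights Ccnd1 was 0.18, Ccnd3 0.046 and Cdk4 0.049. For the shift between times, Ccnd3 was 0.44 and Cdk4 0.22 with array weights and 0.29 and 0.10 without the low-correlation libraries, and Cdkn2d ran from -0.13 to 0.27 with an animal left out. The cause of these changes was not tested.

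Correlations of the deviations of same-numbered animals ran from -0.37 to 0.33 and were not all above 0.1 in any table. The numbers were therefore not taken to pair animals. With only 3 to 5 such pairs in a table, these values cannot show that the numbers carry no pairing.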
